A study of Homo sapiens with 18 samples.

Results

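The 8 subunits of the cytosolic chaperonin, known as TRiC or CCT, were followed through heat shock and recovery in SW620 cells with and without silencing of the mitochondrial protease Lonp1. They are TCP1 (the alpha subunit), CCT2 (beta), CCT3 (gamma), CCT4 (delta), CCT5 (epsilon), CCT6A (zeta), CCT7 (eta) and CCT8 (theta). The members were taken by name, as the rows of these 8 genes among the 26485 gene symbols of the count table, and all 8 were among the 12832 genes tested. SW620 is an established human colon cancer cell line. RNAseq was available for 18 libraries in 6 groups of 3, described as independent biological replicates. Cells of the scramble arm received a scramble siRNA and cells of the siLonp1 arm an siRNA against Lonp1, whose sequence is not given for RNAseq in the sources used here. In each arm, Ctrl cells stayed at 37 °C, HS cells were held for 1 h at 42 °C, and HS+REC cells were held for 1 h at 42 °C and then kept for 1 h at 37 °C. The comparisons ask how heat, recovery and Lonp1 silencing change the messages of this chaperonin.

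TRiC is a barrel of stacked rings, and each ring holds 1 copy of each of the 8 related subunits. ATP binding and hydrolysis close a lid over the cavity, in which actin, tubulins and many proteins with WD repeats reach their native form. Prefoldin hands unfolded actin and tubulin chains to the chaperonin, phosducin-like proteins act on it as cochaperones, and the tubulin folding cofactors take over tubulins that it releases. In heated cells, heat shock factor 1 (HSF1) binds heat shock elements, which are arrays of short inverted GAA repeats in promoters.

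Promoter sequences were searched for a single pair of inverted GAA repeats, which is shorter than a heat shock element. The search covered RefSeq promoters of GRCh38.p14, from 250 bases before to 50 bases after each start, and looked for GAANNTTC or TTCNNGAA, where N is any base. Each motif is its own reverse complement, so a match holds on both strands, and matches of the 2 motifs can overlap. Of 35116 promoters, 13.5% held at least 1 match, as did 16.2% of 27305 genes in any of their promoters. The table was matched for 7 of the 8 subunits, all but CCT6A. Of them 3 (TCP1, CCT2 and CCT4) held a match, whereas CCT3, CCT5, CCT7 and CCT8 held none in the windows searched. The windows of CCT3, CCT5 and CCT7 lie wholly inside their genes in GENCODE release 44, so the GENCODE starts of these genes were not searched. Counted per promoter, 3 of 9 entries of the subunits held a match. The matches are shown with flanking bases, 5′ to 3′ on the strand of the gene, with the motif in capitals, because the subunits that carry them can be set beside their heat responses. HSPD1, the mitochondrial chaperonin HSP60, and DNAJB1, a classical heat shock gene, are shown for comparison, and each also had an entry without a match. HSPE1, the cochaperonin of HSP60, whose rise in HS+REC is given below, was also searched and held no match.
TCP1: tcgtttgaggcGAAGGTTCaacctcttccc
CCT2: cccggagcgaaGAAATTTCtagtgtgggac
CCT4: ccggcgccgctTTCTGGAAggtt
COMMD1: actgccTTCACGAACCTTCCAGAAagcggc
HSPD1: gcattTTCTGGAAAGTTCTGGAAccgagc
DNAJB1: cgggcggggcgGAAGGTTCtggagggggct
The TCP1 sequence lies at chr6:159789815-159789844 on the minus strand, and its motif begins 231 bases before the start. The CCT2 sequence lies at chr12:69585789-69585818 on the plus strand, 89 bases before the start of 1 of its 2 promoter entries. That entry lies inside the CCT2 gene of GENCODE, and the entry that covers the GENCODE start held no match. The CCT4 sequence lies at chr2:61888607-61888629 on the minus strand, 38 bases after the start of 1 of its 2 entries. COMMD1 starts 53 bases from CCT4 on the other strand, and its window at chr2:61888595-61888624 on the plus strand shows that the CCT4 motif is the last of 3 overlapping matches. HSPD1 also held 3 overlapping matches, at chr2:197500062-197500090 on the minus strand. The DNAJB1 sequence lies at chr19:14518456-14518485 on the minus strand, 77 bases before a start. DNAJB1 held 2 further matches, 47 bases before the same start and 1 base after another, which are not shown. A match is a description of letters and not of HSF1 binding, which was not measured here.

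Library totals ran from 30815860 to 47279297 counts. The subunits were abundant, with 10202 to 72781 counts of a subunit in a library. Levels are given as CPM, which are counts divided by the TMM-scaled library size, with the SD over 3 libraries. At 37 °C LONP1 had 221 ± 5.56 CPM with scramble and 20.4 ± 1.75 CPM with siLonp1, and it was also lower with siLonp1 in both heat conditions. The remaining LONP1 differed between conditions, at 11.7 ± 0.153 CPM in HS siLonp1 and 27.2 ± 1.64 CPM in HS+REC siLonp1, so the siLonp1 effects of the 3 conditions were measured at unequal silencing, whose part in them was not tested. DNAJB1 rose from 239 ± 9.98 CPM in Ctrl scramble to 5301 ± 261 CPM in HS scramble. Of 6 colon epithelial markers, EPCAM, KRT8, KRT18, VIL1 and CDH1 were expressed and CDX1 was at 0 in every library, with a summed level of 7885 to 10850 CPM. Summed levels were 21.1 to 61.9 CPM for 4 fibroblast markers, 16.1 to 21.5 CPM for 4 leukocyte markers with PTPRC and CD3E at or near 0, and 0.63 to 1.53 CPM for 3 endothelial markers.

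After recovery 7 of 8 subunits were higher than in Ctrl in each arm, against 2 of 8 after HS alone. Called genes had an FDR of 0.05 or less in edgeR's quasi-likelihood test, with Benjamini-Hochberg adjustment over the 12832 genes tested. In HS scramble 2 of 8 subunits rose (TCP1 and CCT4), beside 18.6% of all genes tested, and 1 fell (CCT8), beside 17.3%. In HS siLonp1 the same 2 subunits rose, beside 20.2% of all genes, and none of the 8 was called lower, beside 22.1%, with 0 lower also at an unadjusted p under 0.05 and with DESeq2. The count of 2 higher was 4 at an unadjusted p under 0.05, with DESeq2, with only the groups compared, and without replicate 3 of Ctrl siLonp1, replicate 3 of HS scramble or replicate 1 of HS+REC siLonp1, and was 3 without replicate 2 of HS scramble or of HS siLonp1. After HS+REC 7 of 8 subunits were higher than in Ctrl in scramble, beside 21.8% of all genes, and 7 of 8 in siLonp1, beside 24.6%. The libraries of these 7 did not overlap between HS+REC and Ctrl in either arm, as for 26.1% of all genes in scramble and 26.8% in siLonp1. CCT7 was the subunit not called in either arm. The median log2 fold change of the 8 was 0.05 in HS scramble and 0.08 in HS siLonp1, and reached 0.33 and 0.38 in HS+REC, whereas the median over all genes tested was within 0.01 of 0 in each of these comparisons. Scaled by library size only, the HS+REC medians were 0.25 and 0.30, beside -0.09 and -0.08 over all genes tested. A change above 2-fold, the limit used in the study, was seen for TCP1 alone in HS+REC in each arm, beside 3.78% of all genes higher by this limit in scramble and 4.51% in siLonp1, and for no subunit in HS, where 2.94% and 3.42% of all genes were higher by this limit. These are levels of RNA relative to other RNA in a bulk sample, in which less RNA per cell and fewer cells of a kind cannot be told apart.

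**Figure D1:**
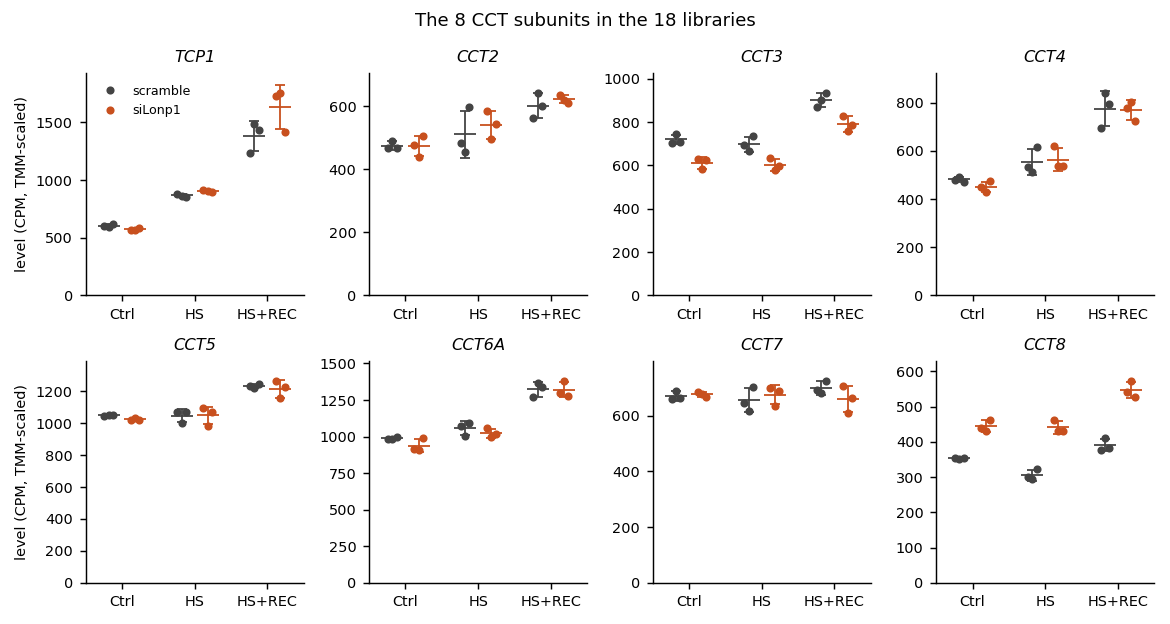
Level of each subunit in each of the 18 libraries, in CPM scaled by TMM factors, with every axis starting at 0; points are libraries, horizontal marks the mean and whiskers the SD of 3 libraries, in grey for scramble and orange for siLonp1. TCP1 climbs at each step, to 1384 and 1633 CPM after recovery, CCT7 stays between 612 and 726 CPM in all libraries, and CCT8 is higher with siLonp1 in each condition.

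TCP1, which gave the complex its first name, had the largest response of the 8. Its gene lies at chr6:159778498-159789703 of hg38 on the minus strand. In scramble cells TCP1 was at 605, 590 and 617 CPM in Ctrl, at 884, 863 and 857 CPM in HS, and at 1239, 1483 and 1430 CPM in HS+REC. In siLonp1 cells it was at 569.5, 569.2 and 587 CPM in Ctrl, at 917, 908 and 897 CPM in HS, and at 1731, 1751 and 1417 CPM in HS+REC. Within each arm the libraries of the 3 conditions did not overlap, and HS libraries lay between Ctrl and HS+REC libraries. The HS effect was 0.52 on the log2 scale in scramble (standard error 0.07, adjusted p = 2.2e-06) and 0.66 in siLonp1 (standard error 0.07, adjusted p = 4.7e-08). The HS+REC effect was 1.20 in scramble (standard error 0.07, adjusted p = 1.8e-12) and 1.51 in siLonp1 (standard error 0.07, adjusted p = 2.4e-14). TCP1 was therefore still rising during the hour at 37 °C, by 0.67 in scramble and 0.85 in siLonp1 from HS to HS+REC, and both steps passed the test.

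CCT4 was the other subunit that passed the test in HS in both arms. Its gene lies at chr2:61868085-61888671 of hg38 on the minus strand. In scramble cells CCT4 was at 480, 494 and 473 CPM in Ctrl, 534, 513 and 616 CPM in HS, and 695, 839 and 793 CPM in HS+REC. In siLonp1 cells it was at 450, 431 and 473 CPM in Ctrl, 618, 537 and 537 CPM in HS, and 778, 805 and 725 CPM in HS+REC. All HS libraries were above all Ctrl libraries of their arm, and all HS+REC libraries were above the HS libraries. The HS effect was 0.20 in scramble (standard error 0.08, adjusted p = 0.0395) and 0.32 in siLonp1 (standard error 0.08, adjusted p = 0.00125), and the HS+REC effect was 0.69 and 0.77 (adjusted p = 9.1e-08 and 1e-08). The scramble HS call was weak, since it was lost without replicate 3 of HS scramble, the highest of its group (0.14). It was also lost without any 1 of the 3 Ctrl scramble libraries, and with library size only (0.17, adjusted p = 0.0614). With replicate number as a block it was lost as well (0.20, adjusted p = 0.0536).

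CCT6A, CCT2, CCT3 and CCT5 were called in HS+REC in both arms and in HS in neither. CCT6A (chr7:56051685-56063989, plus strand) went from 987 ± 7.61 CPM in Ctrl scramble to 1058 ± 47.4 CPM in HS and 1324 ± 50.2 CPM in HS+REC. Its HS+REC effect was 0.42 in scramble and 0.49 in siLonp1 (standard error 0.05 in each, adjusted p = 7.6e-07 and 5e-08). In siLonp1 cells CCT6A was at 939 ± 42.6 CPM in Ctrl, 1024 ± 31.2 CPM in HS and 1321 ± 53.2 CPM in HS+REC. CCT2 (chr12:69585426-69601570, plus strand) was at 474 ± 13.6 CPM in Ctrl scramble, 511 ± 75.2 CPM in HS and 601 ± 39.7 CPM in HS+REC. Its 3 HS scramble libraries stood at 482, 454 and 596 CPM, a spread that covered both the Ctrl level and part of the HS+REC range. The HS+REC effect on CCT2 was 0.34 in scramble and 0.39 in siLonp1 (standard error 0.08 in each, adjusted p = 0.00149 and 0.00027). The step from HS to HS+REC was weak for CCT2 in scramble (0.23, adjusted p = 0.0338), since its call was lost without replicate 1 or 2 of HS scramble or replicate 2 or 3 of HS+REC scramble. In HS siLonp1, CCT2 and CCT6A had effects of 0.19 and 0.13 (adjusted p = 0.0576 and 0.0632), which missed the threshold here and passed it with DESeq2 and with only the groups compared, and for CCT2 also with RLE factors and without low-count filtering.

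CCT3 (chr1:156308968-156367873, minus strand) was at 720 ± 22.6 CPM in Ctrl scramble, 698 ± 34.3 CPM in HS and 902 ± 30.9 CPM in HS+REC. It therefore rose between HS and HS+REC, by 0.37 in scramble and 0.39 in siLonp1 (adjusted p = 2e-05 and 7e-06), with HS effects of -0.04 and -0.02. CCT5 (chr5:10249929-10266389, plus strand) was at 1050 ± 5.56 CPM in Ctrl scramble, 1048 ± 40.7 CPM in HS and 1236 ± 13.6 CPM in HS+REC. The HS+REC effect on CCT5 was 0.24 in scramble and 0.25 in siLonp1 (standard error 0.05 in each, adjusted p = 0.00074 and 0.00033). From HS to HS+REC, 7 of 8 subunits were called higher in scramble, beside 14.2% of all genes, and 6 of 8 in siLonp1, beside 16.3%, with a median of 0.34 in each arm.

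**Figure D2:**
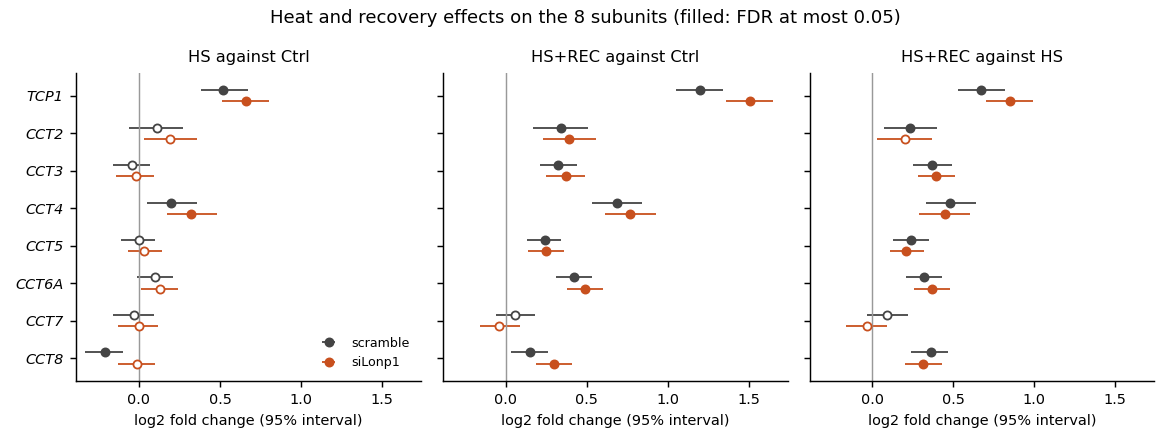
Log2 fold change of each subunit for HS against Ctrl, HS+REC against Ctrl and HS+REC against HS, in scramble (grey) and siLonp1 (orange), with 95% intervals from edgeR and filled points where the FDR was at most 0.05. TCP1 stands at the right of every panel, at 1.20 and 1.51 in the middle panel, and CCT7 is open throughout.

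CCT7 was not called in any of the heat or recovery comparisons. Its gene lies at chr2:73233420-73253021 of hg38 on the plus strand. In scramble cells CCT7 was at 659, 690 and 663 CPM in Ctrl, 647, 617 and 703 CPM in HS, and 693, 680 and 726 CPM in HS+REC, and in siLonp1 cells at 685, 677 and 669 CPM in Ctrl, 701, 637 and 689 CPM in HS, and 706, 612 and 663 CPM in HS+REC. The libraries of every pair of groups overlapped. The HS+REC effect was 0.06 in scramble, with a 95% interval from -0.06 to 0.18, and -0.04 in siLonp1, with an interval from -0.16 to 0.09. The upper end of each interval was under the estimates for TCP1, CCT2, CCT3, CCT4, CCT5 and CCT6A in the same arm. The value in scramble turned to -0.02 with scaling by library size only. That scaling also put the median of all genes tested at -0.09 in the same comparison.

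CCT8 was the subunit that was called lower in HS. Its gene lies at chr21:29055805-29073797 of hg38 on the minus strand. In scramble cells CCT8 was at 355, 351 and 354 CPM in Ctrl, at 299, 294 and 322 CPM in HS, and at 378, 412 and 384 CPM in HS+REC. All 3 HS libraries were under all Ctrl libraries and all HS+REC libraries were above them. CCT8 fell by 0.21 on the log2 scale in HS (standard error 0.06, adjusted p = 0.00426) and stood 0.15 above Ctrl in HS+REC (standard error 0.06, adjusted p = 0.0382). The second call was lost with library size only (0.06), without low-count filtering, and without replicate 2 of HS+REC scramble (0.11) or any 1 of the Ctrl scramble libraries. It was also lost with replicate number as a block (0.15, adjusted p = 0.0522). In siLonp1 cells the HS effect was -0.01 (adjusted p = 0.898) and the HS+REC effect 0.30 (standard error 0.06, adjusted p = 8.3e-05).

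Since the complex holds the subunits in equal number, the levels were also compared per length, as CPM per kb of the canonical transcript in GENCODE release 44. The counts were made per UCSC gene, so the order rests on the choice of transcript length, which the SDs do not cover. In Ctrl scramble the order was CCT6A at 382 ± 2.95, CCT3 at 364 ± 11.5, CCT7 at 363 ± 9.21, CCT5 at 319 ± 1.69, TCP1 at 257 ± 5.69, CCT2 at 248 ± 7.07, CCT4 at 203 ± 4.44 and CCT8 at 191 ± 1.23 CPM per kb. Libraries of neighbours in this order overlapped only between CCT3 and CCT7 and between TCP1 and CCT2. The highest subunit was 2.0 ± 0.0122 times the lowest in Ctrl scramble and 1.97 ± 0.052 times in Ctrl siLonp1.

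Heat and recovery reordered the subunits. TCP1 moved from the fifth place in Ctrl scramble to the second in HS, at 369 ± 5.92 CPM per kb, where its libraries overlapped those of CCT7 at 355 ± 23.6, and to the first in HS+REC, at 588 ± 54.6 CPM per kb, where its libraries overlapped those of CCT6A at 512 ± 19.4. In HS+REC siLonp1 TCP1 reached 694 ± 79.7 CPM per kb, and all its libraries were above those of CCT6A at 511 ± 20.6. TCP1 supplied 11.0% of the summed level per length of the 8 subunits in Ctrl scramble, 15% in HS and 18.6% in HS+REC, and 10.8%, 15.3% and 21.2% in siLonp1. The ratio of TCP1 to CCT7, the subunit not called in any heat comparison, went from 0.708 ± 0.0318 in Ctrl scramble to 1.04 ± 0.0747 in HS and 1.55 ± 0.154 in HS+REC. In siLonp1 cells the same ratio went from 0.668 ± 0.0189 to 1.06 ± 0.0545 and 1.95 ± 0.286. Such ratios within a library do not depend on its scaling. They show unequal change and not which subunit was stable. The ratio of the highest to the lowest subunit was 2.49 ± 0.0725 in HS scramble and 2.79 ± 0.181 in HS+REC scramble, whose libraries overlapped no library of Ctrl scramble. In siLonp1 cells it was 1.70 ± 0.0525 in HS and 2.35 ± 0.209 in HS+REC.

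**Figure D3:**
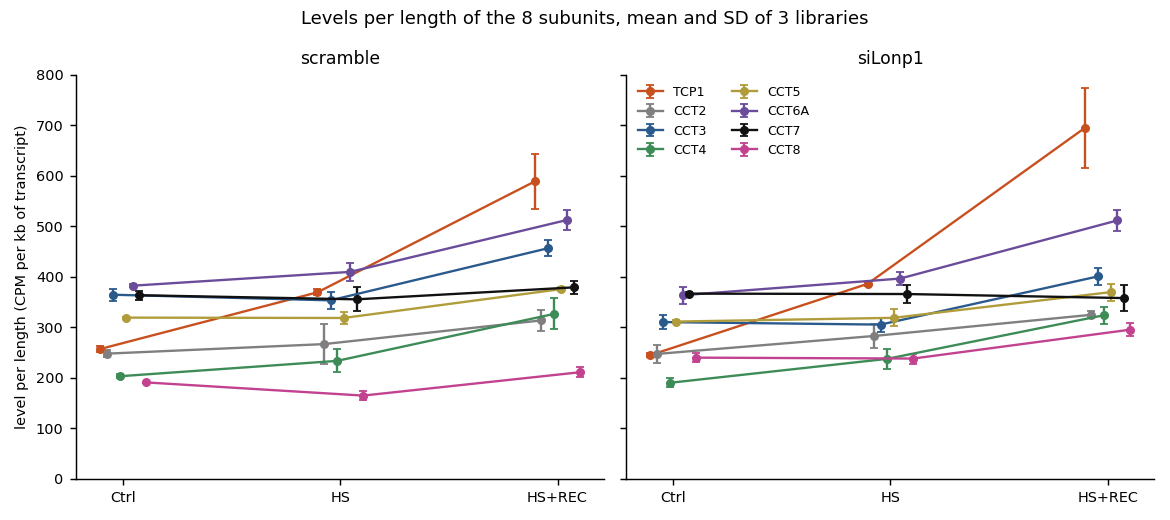
Level per length of the 8 subunits in Ctrl, HS and HS+REC, in CPM per kb of canonical transcript, for scramble (left) and siLonp1 (right); points are means and whiskers the SD of 3 libraries. TCP1 crosses the other subunits between Ctrl and HS+REC, from 257 to 588 in scramble and from 245 to 694 in siLonp1, and CCT8 is lowest in each scramble condition.

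CCT8 was higher and CCT3 lower in the siLonp1 arm than in the scramble arm in each condition. Each arm received its own siRNA, so loss of Lonp1 and other effects of that siRNA cannot be told apart. With siLonp1, CCT8 was at 439, 431 and 463 CPM in Ctrl, 462, 431 and 430 CPM in HS, and 541, 574 and 527 CPM in HS+REC, so that every siLonp1 library was above every scramble library of the same condition. The siLonp1 effect on CCT8 was 0.33, 0.53 and 0.48 in Ctrl, HS and HS+REC (standard error 0.06 in each, adjusted p = 3.7e-05, 4.9e-08 and 1.7e-07). CCT3 was at 631, 582 and 626 CPM in Ctrl siLonp1 against 705, 746 and 709 CPM in Ctrl scramble, and its libraries did not overlap between arms in HS or HS+REC either. CCT3 fell by 0.23 in Ctrl, fell by 0.21 in HS and fell by 0.19 in HS+REC (standard error 0.06 in each, adjusted p = 0.00158, 0.00303 and 0.0072).

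Per length, the ratio of CCT8 to CCT3 was 0.524 ± 0.0195 in Ctrl scramble and 0.774 ± 0.0275 in Ctrl siLonp1. It was 0.466 ± 0.00482 and 0.780 ± 0.014 in HS, and 0.463 ± 0.0239 and 0.739 ± 0.058 in HS+REC. The ratio was thus higher with siLonp1 in every library of each condition. In Ctrl siLonp1, CCT8 overlapped TCP1 in the order per length and CCT4 took the lowest place, at 190 ± 9.02 CPM per kb.

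Apart from these 2 subunits, siLonp1 changed TCP1 in HS+REC alone, with an effect of 0.24 (standard error 0.07, adjusted p = 0.00571). The libraries of the groups overlapped, since replicate 3 of HS+REC siLonp1 at 1417 CPM was under replicates 2 and 3 of scramble. The call was lost when only the groups compared were fitted (adjusted p = 0.0556) and without replicate 1 of HS+REC scramble (0.17). In all, siLonp1 raised 1 of 8 subunits in Ctrl, beside 26.3% of all genes, 1 in HS, beside 28.1%, and 2 in HS+REC, beside 26.8%. It lowered 1 subunit in each condition, beside 22.9%, 26.7% and 27.3% of all genes. The counts of the 8 were thus near or under the share of all genes that changed with siLonp1. CCT2, CCT4, CCT5, CCT6A and CCT7 were not called in any condition, with siLonp1 effects between -0.10 and 0.08. Without replicate 3 of HS scramble, CCT2 was called higher in HS (0.20, adjusted p = 0.0222). With library size only, CCT6A was called lower in Ctrl and HS (-0.15 and -0.14) and CCT7 in HS+REC (-0.15, adjusted p = 0.0245), and CCT4 was called lower in Ctrl with only the groups compared (-0.11). Several of these small values turned sign with library size only, which lowered the median of all genes tested by up to 0.10.

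**Figure D4:**
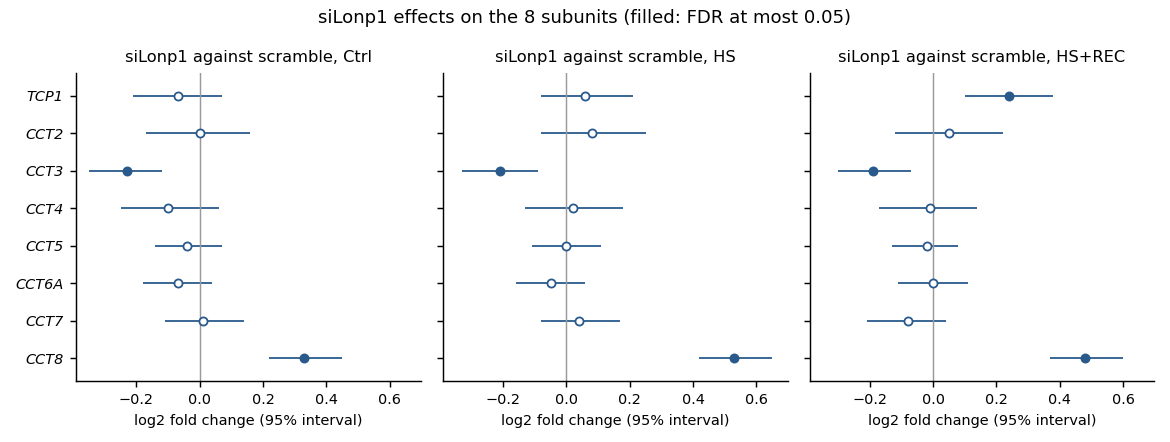
Log2 fold change of each subunit for siLonp1 against scramble in Ctrl, HS and HS+REC, with 95% intervals from edgeR and filled points where the FDR was at most 0.05. CCT8 is to the right of 0 and CCT3 to the left in all 3 panels, and the others lie around 0 except TCP1 in HS+REC at 0.24.

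Whether silencing changed the response to heat was tested as an interaction. None of the 8 subunits was called for HS, beside 1.87% of all genes in either direction, or for HS+REC, beside 1.58%. DESeq2 also called 0 of the 8 in each. At an unadjusted p under 0.05 the counts were 1 (CCT8, 0.20, standard error 0.08, adjusted p = 0.209) for HS and 1 (TCP1, 0.31, standard error 0.10, adjusted p = 0.123) for HS+REC. The TCP1 interaction passed the test without replicate 3 of HS+REC siLonp1, the low TCP1 library of its group (0.40, adjusted p = 0.0110). That library was also lowest in DNAJB1, at 4831 CPM beside 7536 and 6634 CPM in the other 2, and the part of this in the TCP1 value was not tested.

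Over the 18 libraries, which share conditions and depth, log2 CPM of CCT4 and CCT6A followed each other most closely, with a Pearson r of 0.98. Against the mean of the other 7, r was at least 0.91 for TCP1, CCT2, CCT4, CCT5 and CCT6A. It was 0.70 for CCT3, 0.39 for CCT8 and 0.18 for CCT7. CCT3 and CCT8 had an r of 0.01 with each other. Of the genes outside the complex, the 5 whose log2 CPM was most like the mean of the 8 subunits were HSPE1 (r = 0.986), EIF2S2 (0.983), SARAF (0.974), SUGT1 (0.972) and HSPD1 (0.971). HSPD1 and HSPE1 encode the mitochondrial chaperonin and its cochaperonin, EIF2S2 is a subunit of the translation initiation factor eIF2, and SUGT1 is a cochaperone of HSP90.

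The mitochondrial chaperonin, which folds proteins in the matrix, had HS+REC effects near or above that of TCP1. In scramble cells HSPD1 was at 1414, 1355 and 1404 CPM in Ctrl, 1981, 1862 and 1864 CPM in HS, and 3236, 3779 and 3524 CPM in HS+REC. The HS+REC effect on HSPD1 was 1.34 in scramble and 1.69 in siLonp1, and that on HSPE1 was 1.11 and 1.44, all called. Like TCP1, both were higher in HS+REC than in HS, by 0.89 and 1.02 in scramble.

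Several subunits start next to another gene on the opposite strand, so that a promoter region can serve both genes. TCP1 and MRPL18, a protein of the large mitochondrial ribosomal subunit, start 109 bases apart, and the motif printed above for TCP1 lies 14 bases after 1 of the MRPL18 starts in RefSeq. MRPL18 held a further match, 11 bases after another of its starts. Distances between genes were taken from GENCODE starts and motif positions from RefSeq starts, and the TCP1 start of RefSeq lies further inside the gene. In scramble cells MRPL18 was at 106, 114 and 116 CPM in Ctrl, 323, 328 and 362 CPM in HS, and 611, 735 and 734 CPM in HS+REC. Its HS effect was 1.59 in scramble and 2.0 in siLonp1 and its HS+REC effect 2.63 and 3.10, all called and each larger than that of TCP1. COMMD1, across from CCT4, went from 9.41 ± 1.36 CPM in Ctrl scramble to 9.18 ± 0.0583 CPM in HS+REC. Its HS+REC effects of -0.04 and -0.14 were not called, whereas those of CCT4 were, and the difference between the genes was not tested. COMMD1 was called lower in HS scramble (-0.28, adjusted p = 0.027), where CCT4 was higher, and higher with siLonp1 in HS (0.50, adjusted p = 0.00017).

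CCT6A and PSPH, an enzyme of serine synthesis, start 81 bases apart. The HS+REC effect on PSPH was 0.59 in scramble and 0.96 in siLonp1, and unlike CCT6A it was higher with siLonp1 in all conditions, by 0.22, 0.61 and 0.58. CCT5 and FAM173B (ATPSCKMT in current annotation) start 32 bases apart and had HS+REC effects of 0.24 and 0.23 in scramble and 0.25 and 0.28 in siLonp1, all called. In HS scramble FAM173B was called lower (-0.22, adjusted p = 0.0352), whereas CCT5 was not called (adjusted p = 0.971). CCT7 and PRADC1 start 181 bases apart, and neither was called in any comparison. MIR3913-1, across from CCT2, had 0 counts in all libraries.

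**Figure D5:**
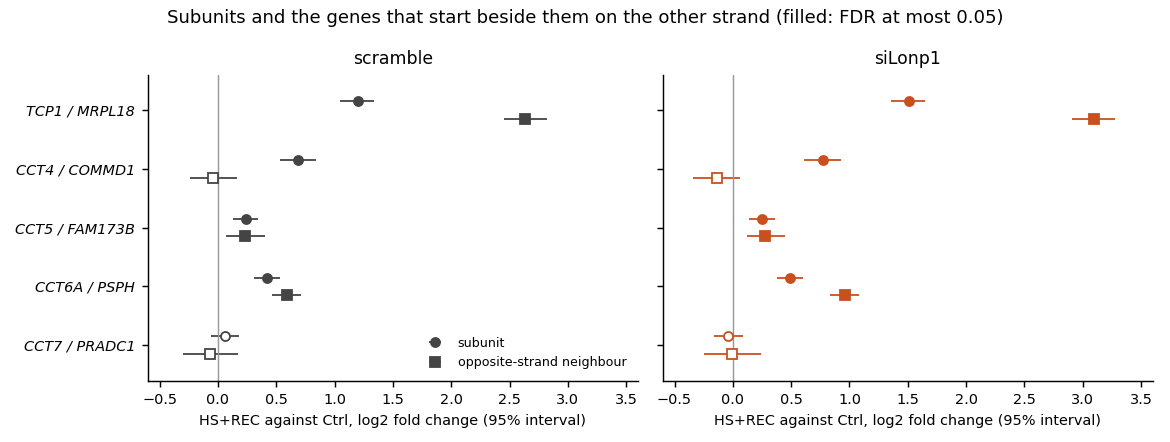
Log2 fold change in HS+REC against Ctrl for 5 subunits (circles) and the genes that start beside them on the other strand (squares), in scramble (left) and siLonp1 (right), with 95% intervals and filled symbols where the FDR was at most 0.05. MRPL18 lies to the right of TCP1, at 2.63 and 3.10, COMMD1 is open at -0.04 and -0.14, CCT4 is filled at 0.69 and 0.77, and the CCT5 and CCT7 pairs lie close together.

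Some reads of the subunits could belong to other genes, since the strand setting of the counting is not given in the sources used here. ACAT2 overlaps the end of TCP1 by 615 bases on the other strand, with 97.5 ± 0.946 CPM in Ctrl scramble, then 94.4 ± 6.17 CPM in HS+REC, and was not called in any heat comparison. TSACC, which overlaps CCT3, stayed between 0.22 and 0.60 CPM. CCT6P1, a pseudogene of CCT6A that may share reads with it, went from 10.3 ± 0.288 CPM in Ctrl scramble to 24.7 ± 1.13 CPM in HS+REC, against 987 and 1324 CPM of CCT6A.

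Several actin and tubulin genes, whose products are clients of the chaperonin, were lower in recovery. Of 20 listed actin and tubulin genes 15 were tested, and after HS 4 were lower in scramble, beside 17.3% of all genes, and 9 in siLonp1, beside 22.1%, with none called higher. After HS+REC 8 were lower in scramble, beside 20.5% of all genes, and 11 in siLonp1, beside 26.6%, again with none called higher, and 7 and 4 were not called. Of all genes, 18.6% and 20.2% were called higher in HS and 21.8% and 24.6% in HS+REC. The median in HS+REC was -0.25 and -0.40. These counts include TUBB4A, which passed the filter through siLonp1 libraries alone. Without it the counts called lower in HS and HS+REC were the same, and the HS+REC medians were -0.26 and -0.41. In HS and in HS+REC, 0 of the 15 were higher also at an unadjusted p under 0.05 or with DESeq2. TUBB was at 1986 ± 20.9 CPM in Ctrl scramble, 1316 ± 31.5 CPM in HS and 1084 ± 57.2 CPM in HS+REC, a log2 fold change of -0.87 in HS+REC. TUBB4B changed by -0.78 in scramble and -0.83 in siLonp1 in HS+REC. ACTB, the cytoplasmic beta actin, went from 7580 ± 291 CPM in Ctrl scramble to 6243 ± 255 CPM in HS+REC (-0.28), and ACTG1 changed by -0.34. Tubulin isotypes share long stretches of sequence, and how reads that fit several genes were counted is not given in the sources used here.

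With siLonp1 many of the same genes were higher. TUBB4A is left out here, since it passed the filter through 3 siLonp1 libraries and 0 scramble libraries. Of the other 14, 10 were higher in Ctrl, beside 26.3% of all genes, 10 in HS, beside 28.1%, and 9 in HS+REC, beside 26.8%, where 2 were lower, beside 27.3%. Their medians were 0.39, 0.33 and 0.28, beside 0.01, 0 and 0 over all genes tested. TUBB2B had siLonp1 effects of 1.37, 1.43 and 1.22 and TUBB6 of 0.88, 0.74 and 0.83. ACTG1 was 4957 ± 133 CPM in Ctrl scramble and 6869 ± 443 CPM in Ctrl siLonp1, an effect of 0.47. Over the same comparisons the subunits had medians of -0.05, 0.03 and -0.01.

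Of the 6 prefoldin subunits, none was called higher in HS+REC scramble, beside 21.8% of all genes, and 1 was lower (PFDN1, -0.18), beside 20.5%. In HS+REC siLonp1 none was called in either direction, beside 24.6% of all genes higher and 26.6% lower. At an unadjusted p under 0.05 the counts were 0 higher and 2 lower in scramble and 2 higher and 0 lower in siLonp1, and DESeq2 called 2 lower in scramble and 1 higher in siLonp1. Their medians were -0.02 and 0.07. From HS to HS+REC, 1 of the 6 was higher in each arm (PFDN4, 0.19 with adjusted p = 0.0404 and 0.26 with adjusted p = 0.00433), beside 14.2% and 16.3% of all genes. With siLonp1, 1 prefoldin subunit was higher in Ctrl, beside 26.3% of all genes, 3 in HS, beside 28.1%, and 4 in HS+REC, beside 26.8%, and 1 was lower in Ctrl (PFDN6, -0.20), beside 22.9%. PFDN2 was higher in all 3 conditions (0.26, 0.33 and 0.29) and PFDN5 in HS and HS+REC (0.45 and 0.32). Of 4 phosducin-like genes 3 were tested, and PDCL3 was lower in HS+REC in both arms (-0.30 and -0.34), whereas TXNDC9 was higher with siLonp1 in all conditions (0.33, 0.39 and 0.27). Of 5 tubulin folding cofactors none was called higher in HS+REC (0 also at an unadjusted p under 0.05 and with DESeq2), beside 21.8% and 24.6% of all genes. In siLonp1 1 was lower (TBCD, -0.24), beside 26.6%, and in scramble none was called lower, beside 20.5%, although TBCD (-0.17, adjusted p = 0.0558) was called with DESeq2. TBCA was higher in HS+REC than in HS in scramble (0.17, adjusted p = 0.0447). With siLonp1 TBCA and TBCB were higher and TBCD lower in each condition, and TBCC was lower in HS and HS+REC (-0.23 in each).

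Among 7 clients with WD repeats, 1 was higher in HS+REC scramble, beside 21.8% of all genes, and 3 were lower, beside 20.5%. In HS+REC siLonp1 1 was higher, beside 24.6%, and 4 were lower, beside 26.6%. RPTOR, the mTORC1 scaffold raptor, changed by -1.04 and -1.19 in HS and by -0.93 and -1.03 in HS+REC. FZR1, an activator of the anaphase-promoting complex, changed by -0.59 and -0.84 in HS+REC, whereas PPP2R2A, a regulatory subunit of protein phosphatase 2A, rose by 0.54 and 0.61. GNB1, a G protein beta subunit, was 280 ± 7.17 CPM in Ctrl scramble and 580 ± 14.8 CPM in Ctrl siLonp1, with siLonp1 effects of 1.05, 1.09 and 1.15.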

How the data were processed

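The members and gene lists were chosen with earlier results of these data known. The authors prepared stranded mRNA libraries, aligned paired reads to hg38 with STAR 2.7.3a and counted them per UCSC gene with featureCounts, and the values deposited by the authors are raw counts, with no normalization. The strand setting and the handling of reads shared by several genes are not given in the sources used here. All 18 columns were matched to samples by title, and none was left over.

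The filter kept the 12832 genes that had CPM above 1 in 3 or more libraries. edgeR 4.0.16 in R 4.3.3 was run with TMM factors (0.934 to 1.06) and the quasi-likelihood test in 1 model of 6 group means, and p-values were adjusted by Benjamini-Hochberg over all genes tested. The contrasts were HS and HS+REC against Ctrl and HS+REC against HS in each arm, siLonp1 against scramble in each condition, and 2 interactions, of siLonp1 with HS and of siLonp1 with HS+REC. Calls were made at FDR at most 0.05 at any fold change, with the limit of 2-fold beside it. Fold changes used a prior count of 0.125. The common biological coefficient of variation was 0.0658. Replicates differed by more than counting error (chi-square per degree of freedom 3.48 to 25.8), and library totals had a median of 40847024.5.

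List genes were named where called in a heat contrast of both arms or in a siLonp1 contrast, at most 4 per list and contrast. Genes outside the lists were the silencing and heat checks, overlapping genes, opposite-strand genes starting within 1 kb, pseudogenes, and the 5 genes most like the subunits by Pearson r of log2 CPM. Alternatives were RLE factors, library size only, no filter, DESeq2 1.42.0, the 2-fold limit, only the groups compared, the replicate block and 18 fits without 1 library each.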

Additional observations from a re-analysis of the deposited data

Results flagged for a closer look

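No interaction of siLonp1 with heat was called for the 8 subunits, beside 1.87% of all genes for HS and 1.58% for HS+REC. Among the larger number of genes described beside them, 5 were called by edgeR's interaction test with Benjamini-Hochberg adjustment. These 5 are given because they were called, and a difference between them and the subunits was not tested. The uncalled HS+REC interaction of TCP1 (0.31) was close to the called one of HSPD1 (0.35). MRPL18, which starts beside TCP1, rose more in HS+REC with siLonp1, with an interaction of 0.47 (standard error 0.12, adjusted p = 0.0465), and the call was lost in 13 of 18 fits without 1 library, with the replicate block and with only the groups compared. PSPH, which starts beside CCT6A, had interactions of 0.39 in HS (standard error 0.09, adjusted p = 0.017) and 0.37 in HS+REC (standard error 0.08, adjusted p = 0.0244), each lost in 5 of 18 such fits. CCT6P1, a pseudogene of CCT6A, rose less with siLonp1 in HS+REC, with an interaction of -0.56 (standard error 0.10, adjusted p = 0.00374) that was kept in all 18 fits. HSPD1, the mitochondrial chaperonin, had an interaction of 0.35 in HS+REC (standard error 0.09, adjusted p = 0.0468), which was lost in 15 of 18 fits, with the replicate block and with only the groups compared. LONP1, the silenced gene, changed by -0.80 in HS siLonp1 and 0.41 in HS+REC siLonp1 against -0.04 and -0.02 in scramble, with interactions of -0.76 in HS (standard error 0.11, adjusted p = 0.00047), kept in all 18 fits, and 0.43 in HS+REC (standard error 0.10, adjusted p = 0.0321), lost in 9 of 18 fits, with the replicate block and with only the groups compared.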

How the results depend on the processing

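Whether the replicate numbers pair libraries is not given in the sources used here. Correlations of same-numbered deviations ran from -0.379 to 0.462, with a median of -0.0222 beside 0.0223 for other numbers. The replicate block took the call from CCT4 in HS scramble (1 subunit called higher in place of 2) and from CCT8 in HS+REC scramble. The 2-fold limit left 0 calls in HS, in HS+REC against HS and for siLonp1, and 1 in each HS+REC effect. Library size only left 1 call higher in HS scramble, 2 lower for siLonp1 in each condition, and medians of 0.25, 0.30 and 0.28 for HS+REC scramble, HS+REC siLonp1 and HS+REC against HS in scramble, and of -0.13, -0.06 and -0.08 for siLonp1 in Ctrl, HS and HS+REC. It turned uncalled values to -0.01 for CCT5 in HS siLonp1, -0.02 for CCT7 in HS+REC scramble, -0.06 for CCT7 with siLonp1 in Ctrl, and in HS to -0.03 for TCP1, -0.01 for CCT2, -0.07 for CCT4 and -0.05 for CCT7, and to -0.02 for CCT2 in HS+REC. No filter turned the CCT5 interaction with HS+REC to -0.01. Only the groups compared gave 4 calls higher in HS siLonp1, as did DESeq2 (CCT2 and CCT6A added), 2 lower with siLonp1 in Ctrl and 1 higher in HS+REC. The interactions were called for 240 and 203 of all genes, for 497 and 385 without the filter, 440 and 317 with DESeq2, 731 and 143 with only the groups compared, and 180 and 170 with the replicate block. The cause was not tested.

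Without each library in turn, subunits called higher numbered 1 to 2 in HS scramble (CCT4 lost without HS scramble replicate 3 or any Ctrl scramble replicate), 2 to 4 in HS siLonp1, 1 to 2 for siLonp1 in HS (CCT2 gained without HS scramble replicate 3) and in HS+REC (TCP1 lost without HS+REC scramble replicate 1), and 0 to 1 for the HS+REC interaction (TCP1 gained without HS+REC siLonp1 replicate 3). The counts were 6 to 7 in HS+REC scramble, where CCT8 was lost in 4 of 18 fits, and 7 in HS+REC siLonp1. For HS+REC against HS they were 6 to 7 in each arm. CCT2 in HS+REC against HS, scramble, ranged down to 0.16 and lost its call without HS scramble replicate 1 or 2 or HS+REC scramble replicate 2 or 3, and with library size only or only the groups compared. Uncalled values crossed 0, from -0.06 to 0.01 for CCT7 in HS scramble, CCT3 in HS siLonp1 and CCT5 with siLonp1 in HS+REC, from -0.05 to 0.02 for CCT8 in HS siLonp1, from -0.09 to 0.02 and -0.10 to 0.02 for CCT7 in siLonp1 in HS+REC against Ctrl and HS, from -0.05 to 0.10 and -0.08 to 0.05 for CCT4 with siLonp1 in HS and HS+REC, from -0.01 to 0.05, 0.06 and 0.07 for the HS interactions of CCT3, CCT6A and CCT7, from -0.03 to 0.05 for the HS+REC interaction of CCT5, from -0.02 to 0.17 for HSPE1 in HS scramble, and from -0.09 to 0.04 and -0.07 to 0.05 for LONP1 in HS and HS+REC scramble. The median HS interaction ranged from 0.01 to 0.11. Interactions of all genes numbered 98 to 526 for HS and 96 to 306 for HS+REC. Every call of TCP1 and CCT4 for HS+REC against Ctrl or HS, and every siLonp1 call of CCT8 and CCT3, was kept under the settings tried other than the 2-fold limit. The precision is limited by 3 libraries a group.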

Other observations

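The snoRNA genes inside introns of TCP1 were highest in HS, whereas TCP1 was highest in HS+REC. In scramble cells SNORA29 was at 0.437, 0.252 and 0.168 CPM in Ctrl, 5.20, 4.86 and 4.04 CPM in HS, and 0.581, 1.21 and 0.916 CPM in HS+REC. In siLonp1 cells it was at 0.381, 0.198 and 0.153 CPM in Ctrl, 2.39, 3.47 and 4.10 CPM in HS, and 0.404, 0.838 and 0.409 CPM in HS+REC. HS libraries were the highest in each arm, and since SNORA29 passed the filter through them, no test is given. SNORA20, in the same gene, was under the filter and went from 0.216 ± 0.0418 CPM in Ctrl scramble to 1.13 ± 0.434 CPM in HS, then 0.629 ± 0.204 CPM in HS+REC. Whether these rows hold snoRNA or unspliced TCP1 reads was not tested. CCT6P1 likewise was highest in HS, at 27.3 ± 1.16 CPM in scramble and 21.8 ± 0.258 CPM in siLonp1, from 10.3 ± 0.288 and 10.2 ± 0.205 CPM in Ctrl, and CCT6P3 went from 2.29 ± 0.216 CPM in Ctrl scramble to 3.46 ± 0.304 CPM in HS.

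Relatives of the subunits outside the complex were mostly too low to test. Of 5 chaperonin-like genes, CCT6B, CCT8L2 and BBS12 were under the filter. MKKS, a chaperonin-like gene of the Bardet-Biedl group, had HS+REC effects of 0.18 and 0.34, and BBS10 had 0.13 and 0.25, of which the second was called.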
